A study of Oryctolagus cuniculus with 3 samples.

Results

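The genes described here are 112 parts of the machinery that copies and divides the genome, out of 6507 named genes measured in rabbit late blastocysts that had been stored in the cold as morulae. They were chosen by symbol: cyclins, cyclin-dependent kinases (CDKs) and the proteins that carry their name, CDC proteins, MCM helicase subunits, SMC proteins, centromere (CENP) and kinesin (KIF) proteins, BUB and MAD checkpoint proteins, Polo-like and Aurora kinases, and anaphase-promoting complex subunits. No measured ratio entered that choice, but signal level was tied to it. The symbols matched 131 genes on the array, of which 19 had no deposited ratio. All 22839 non-control probes with a deposited ratio were well above background in all 4 scanned channels. Of the 19 genes left out, only 2 reached that level. Each gene was read by its brightest probe. The name match also took in genes with other known jobs, and by textbook knowledge 78 of the 112 are known for the division cycle and 34 are not.

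Does inseminated artificially gave morulae on day 3, which were either slow-frozen or vitrified, then placed in recipient does and collected on day 6, 3 days after transfer. Slow freezing cools embryos gradually, whereas vitrification plunges them in dense cryoprotectant that sets as a glass. For the vitrified morulae the labels give a first bath of 2 min at 20 °C with 12.5% dimethyl sulphoxide and 12.5% ethylene glycol, and a second of 30 s with 20% of each. The labels do not describe the freezing steps, the rabbit strain or how many embryos went into a sample, and unfrozen embryos were not analysed here. Each of 3 two-colour Agilent arrays compared an RNA sample of frozen embryos directly with one of vitrified embryos, so n is 3 throughout. Each value is the log2 of the frozen over the vitrified signal, so that a positive value means more signal from frozen embryos. The dyes were exchanged on replicate 2, whose direction in the deposited table is likely, not stated. For that reason means with the sign of replicate 2 turned are given too: for every class, and for each of the 20 genes whose mean this changed by at least 0.2. Epiblast, hypoblast and trophoblast markers were represented by 4 of 9, 10 of 14 and 6 of 10 listed genes, each well above background in all 4 scanned channels. These are whole embryos, so fewer cells of a type and less RNA per cell cannot be told apart.

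Cells divide by a cycle of DNA copying and chromosome segregation. Cyclins rise and fall and switch on their CDK partners, and inhibitor proteins hold those kinases back. MCM proteins open the DNA for replication, while cohesin and condensin, built on SMC proteins, hold and compact the copies. Kinetochores, kinesins, Polo-like and Aurora kinases move the chromosomes on the spindle. The BUB and MAD checkpoint restrains the anaphase-promoting complex until every chromosome is attached. Preimplantation embryos are among the most actively dividing tissues, and many of these transcripts are abundant in them.

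Most values below come from probes of 60 bases, and the probes of 5 genes are shown because the results turn on them: CCNG2 for its shift on every array, CCNB1 as a mitotic cyclin, PLK1 and SMC1A for their spread between arrays, and MCM8 as a helicase gene measured by several probes. Capitals mark G and C, the bases that set how tightly a probe holds its target.
CCNG2: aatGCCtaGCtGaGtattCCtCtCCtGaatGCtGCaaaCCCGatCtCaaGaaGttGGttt
CCNB1: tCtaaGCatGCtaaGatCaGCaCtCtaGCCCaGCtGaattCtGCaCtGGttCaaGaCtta
PLK1: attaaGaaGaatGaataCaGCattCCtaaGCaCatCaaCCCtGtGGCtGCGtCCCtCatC
SMC1A: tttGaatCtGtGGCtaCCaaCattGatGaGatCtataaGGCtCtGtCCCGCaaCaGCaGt
MCM8: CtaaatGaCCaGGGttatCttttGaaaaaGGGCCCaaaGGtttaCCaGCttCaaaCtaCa
The array's own annotation, whose genome build it does not name, places them at chr15:73253359-73253418 (CCNG2, minus strand), chr11:85371159-85371218 (CCNB1, plus), chr6:14402933-14404211 (PLK1, plus), chrX:34897013-34897072 (SMC1A, minus) and chr4:12429447-12429506 (MCM8, plus). The PLK1 probe covers more genome than its 60 bases, so it spans an exon junction. The first 4 probes each hold 27 G or C bases, or 45%, and the MCM8 probe holds 24, or 40.0%.

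For most of the division machinery the frozen and vitrified embryos differed little. The median log2 ratio of the 112 genes was -0.05, against -0.01 over the 6507 named genes. On the separate arrays the median was -0.15, 0.04 and 0.004, against -0.08, 0.04 and 0.02 for all named genes. The mean lay above 0 for 44 genes and below 0 for 68, against 3040 and 3467 of the 6507 named genes. It stayed within 1.5-fold for 111 of the 112, the exception being CCNG2, against 97.8% of all named genes. The 95% interval of the mean lay wholly inside 1.5-fold for 81 genes (72.3%) and inside 2-fold for 110 (98.2%), where all named genes gave 62.4% and 93.9%.

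No gene of the machinery passed the test. At an adjusted p under 0.05 (limma with Benjamini-Hochberg adjustment over all 22839 probes) 0 of the 112 were called, and 0% of all probes; the smallest adjusted p was 0.809 among the 112 and 0.55 over all named genes. At an unadjusted p under 0.05 limma gave 1 gene, CCNG2, or 0.893%, against 4.47% of all probes and 4.20% of named genes. Its direction was higher, which held for 1.43% of named genes, while 0 members and 2.77% of named genes were lower. Values of 1 sign on every array were found for 18 genes (16.1%), against 22.4% of named genes. Of those 18, 9 were higher in frozen embryos and 9 lower (8.04% each), against 10.7% and 11.6%. A mean of at least 1.5-fold with 1 sign on every array was met by 1 gene, again CCNG2, against 1.54% of named genes. With 3 arrays the smallest p that exact flipping of signs allows is 0.25, so no such test is given per gene.

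**Figure D1:**
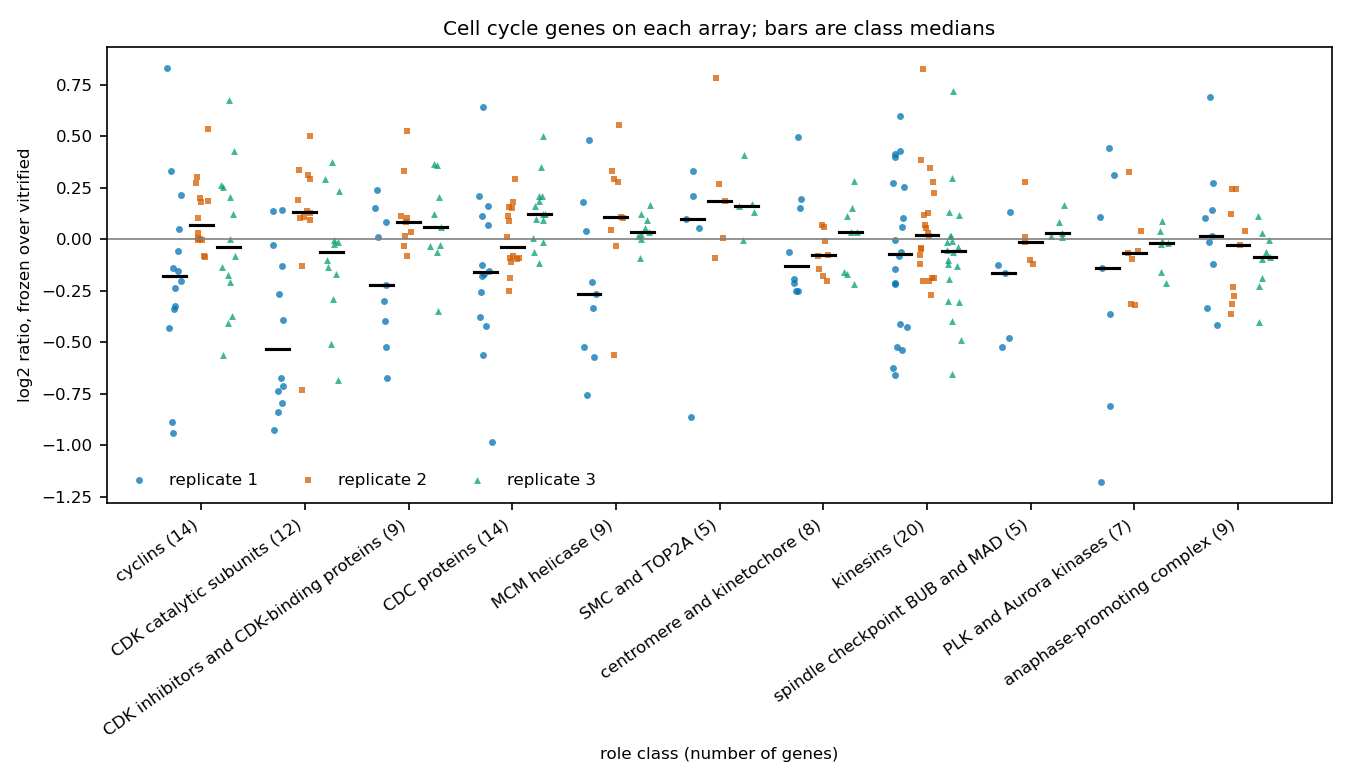
Log2 ratio of frozen over vitrified (vertical axis) for each of the 112 genes, by role class (horizontal axis, number of genes in brackets) and by array (blue circles replicate 1, orange squares replicate 2, green triangles replicate 3); black bars are class medians. The CDK catalytic subunits show the widest gap between arrays, with medians of -0.53, 0.13 and -0.06 on replicates 1, 2 and 3.

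Cyclins, the activating partners of the CDKs, were evenly divided, with 7 of 14 means above 0 and 7 below (median 0.001). CCNG2, cyclin G2, an unconventional cyclin linked to cell cycle arrest, had the highest mean of the 112 genes. Its log2 ratio was 0.83, 0.54 and 0.68 on replicates 1, 2 and 3, so frozen embryos were higher on each array. The mean was 0.68 ± 0.15 (SD, n = 3), with a 95% interval of 0.34 to 1.02. The spread between arrays was smaller than the difference (unadjusted p = 0.00328), but the adjusted p over all probes was 0.809 (limma). With the sign of replicate 2 turned the mean was 0.32, below those of KIF21A, MCM3 and ANAPC5, with an unadjusted p of 0.311 by limma. With normexp and loess on the scanner files of replicates 1 and 3 it was 0.28, with an unadjusted p of 0.115 by limma. The unadjusted call thus ended in both settings. The gene has 1 probe here, with a mean log2 signal of 6.23 where the members ran from 4.97 to 15.0. It was thus among the 21 of 112 genes below a log2 signal of 7.

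The cyclins that drive mitosis gave small values. CCNB1, cyclin B1, the main partner of CDK1 at mitotic entry, read -0.43, 0.27 and -0.41, with a mean of -0.19 ± 0.40 (SD). CCNB2, its close relative, read 0.21, -0.001 and 0.25 (mean 0.15 ± 0.14). CCNA2, cyclin A2, which acts in S phase and at entry into mitosis, read -0.21, 0.20 and -0.08 (mean -0.03 ± 0.21). None of these 3 kept its sign on all 3 arrays.

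Among the cyclins of G1 and the start of S phase, CCND3, cyclin D3, a partner of CDK4 and CDK6, had the lowest mean of the 112 genes in the orientation used here. It read -0.94, -0.002 and -0.37, with a mean of -0.44 ± 0.47 (SD; 95% interval -0.96 to 0.08; unadjusted p = 0.085, adjusted p = 1.00 by limma). Its sign was the same on each array, but replicate 2 lay at -0.002. Turning replicate 2 left CCND3 at -0.44, where PLK1, SMC1A, CDK16, CDK3 and KIF27 were lower. The other D-type cyclin, CCND2, read 0.33, 0.30 and -0.21 (mean 0.14 ± 0.30; -0.06 with replicate 2 turned). The array describes that probe as cyclin D1 while its transcript is listed under CCND2 in RefSeq, so which D cyclin it reads is uncertain. CCNE1 and CCNE2, the E cyclins that pair with CDK2, had means of 0.05 ± 0.14 and 0.13 ± 0.29.

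The remaining cyclins had means from -0.30 to 0.04. CCNA1, the germ-line A cyclin, read -0.34, 0.01 and -0.56 (mean -0.30). CCNT1, which serves transcription elongation, read -0.89, -0.005 and 0.003, so its mean of -0.30 came from replicate 1. CCNJ was below 0 on each array at its brighter probe, at -0.24, -0.08 and -0.13. The other CCNJ probe read -0.54, 0.32 and -0.02. CCNF, CCNH and CCNT2 had means between -0.05 and 0.04.

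The CDKs themselves had the lowest class median, -0.11, with 10 of 12 means below 0. The arrays were not alike. On replicate 1 the class median was -0.53 with 10 of 12 values below 0, and on replicate 2 it was 0.13 with 2 of 12 below 0. On replicate 3 it was -0.06 with 9 below 0. 9 of the 12 were negative on replicate 1 and positive on replicate 2, as were 2653 of the 6507 named genes. CDK2 alone kept 1 sign on every array. Turning replicate 2 gave a class median of -0.24 and 6 of 12 genes of 1 sign, all of them lower in frozen embryos. Of the 6507 named genes, 998 were of 1 sign and lower in that setting.

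CDK1, the mitotic kinase, read -0.27, 0.10 and -0.14, with a mean of -0.10 ± 0.19 (SD). CDK2, the S-phase kinase, read -0.03, -0.13 and -0.01 (mean -0.06 ± 0.06; 0.03 with replicate 2 turned). CDK4, which works with D cyclins in G1, read -0.67, 0.14 and -0.29 (mean -0.28 ± 0.41). The frozen embryos were lower in CDK4 on replicates 1 and 3 but not on replicate 2. CDK6, its partner in that role, read -0.79, 0.31 and 0.29 (mean -0.06 ± 0.63; -0.27 with replicate 2 turned), so replicate 1 alone lay below 0. CDK7, the CDK-activating kinase, read 0.14, 0.09 and -0.03 (mean 0.07 ± 0.08). CDK3 read -0.71, 0.19 and -0.51 (mean -0.34 ± 0.47).

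The same sign change was found in CDKs that serve other processes. CDK16 read -0.84, 0.50 and -0.10, and its mean was -0.15, or -0.48 with replicate 2 turned. CDK11B read -0.93, 0.34 and -0.004 (mean -0.20, turned -0.42), and CDK12, a transcription kinase, -0.39, 0.29 and -0.17. The class also holds CDKL2, a CDK-like kinase, which ran the other way at 0.14, -0.73 and -0.68 (mean -0.43 ± 0.49; adjusted p = 1.00 by limma). Its mean was 0.06 with replicate 2 turned.

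CDK inhibitors and CDK-binding proteins had 5 of 9 means above 0 and a median of 0.03. CDKN1A, p21, the inhibitor induced by p53, was below 0 on each array at -0.40, -0.03 and -0.35 (mean -0.26 ± 0.20; unadjusted p = 0.126 by limma). CDKN1B, p27, which holds cells out of S phase, read 0.24, -0.08 and 0.36 at its brightest probe (mean 0.17 ± 0.23; unadjusted p = 0.294 by limma). The 2 inhibitors thus had means of opposite sign, and neither passed the test. CDKN3, a phosphatase that acts on CDKs, had a mean of 0.05 ± 0.07. CDK5RAP1 had a wide spread at -0.68, 0.52 and 0.36 (mean 0.07, turned -0.28). CDK5R1, an activator of CDK5, read -0.52, 0.33 and -0.03 (mean -0.08, turned -0.30). The class median was -0.09 with replicate 2 turned.

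CDKN1B was read by 10 probes, the most of any of these genes, and the mean was above 0 for each, from 0.17 to 0.37. The probes fall in 2 places of the transcript with 5 overlapping probes each, so they are not independent readings. The pair below shows the overlap at the place that starts earlier in the transcript; capitals mark the 52 bases that both probes hold.
CDKN1B first: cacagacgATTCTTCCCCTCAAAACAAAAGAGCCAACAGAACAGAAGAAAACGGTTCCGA
CDKN1B last: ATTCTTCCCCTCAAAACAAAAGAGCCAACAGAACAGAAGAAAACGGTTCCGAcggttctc
At that place, which holds the brightest probe, the 5 means ran from 0.17 to 0.20, and at the other from 0.23 to 0.37. Replicate 2 separated them, with values of -0.11 to -0.01 there and 0.04 to 0.16 at the other.

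**Figure D2:**
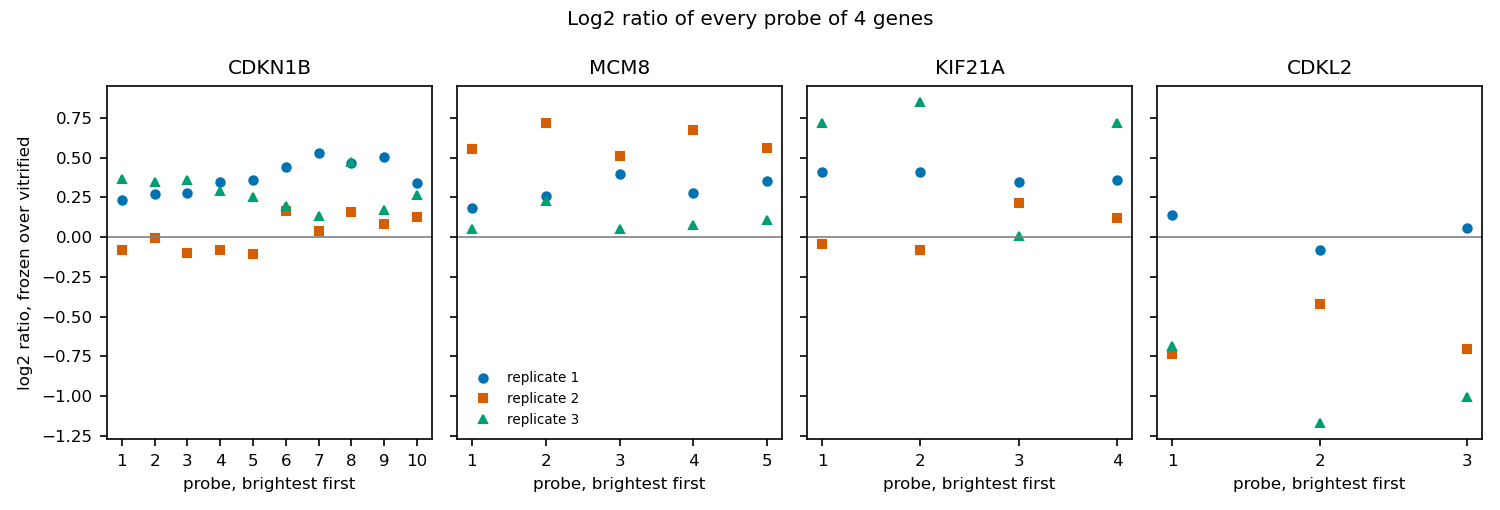
Log2 ratio of frozen over vitrified (vertical axis) for every probe of CDKN1B, MCM8, KIF21A and CDKL2, with probes in order of brightness (horizontal axis) and 1 symbol per array. The arrays keep their order across the 5 MCM8 probes in replicate 2, which is highest at each, and replicate 1 is above 0 at all 10 CDKN1B probes.

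CDC proteins gave a median of -0.001, with 6 of 14 means above 0. CDC25A, the phosphatase that frees CDK2 for S phase, read -0.98, 0.29 and 0.35 at its brightest probe (mean -0.11 ± 0.75). Replicate 1 lay far below the other arrays. Its 4 probes are dim, with mean log2 signals from 5.21 to 5.94, and their means ran from -0.11 to 0.10. CDC25C, which does so for CDK1 at mitosis, read 0.11, -0.09 and 0.12 (mean 0.05 ± 0.12). CDC6, which loads the MCM helicase, read -0.17, 0.18 and -0.02 (mean -0.002 ± 0.17). CDC20, the activator of the anaphase-promoting complex, read -0.25, -0.09 and 0.09 (mean -0.09 ± 0.17). None of these 4 regulators had 1 sign on every array.

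The other CDC names include genes that are not part of the division cycle. CDC42BPA, a kinase acting downstream of the small GTPase CDC42, gave the smallest spread of the 112 genes in this orientation, at 0.16 on each array (SD 0.003), and a mean of 0.06 with replicate 2 turned. Because limma shares the spread across probes, its unadjusted p was 0.26. CDC42SE2 read -0.38, 0.09 and -0.06, and CDC42 itself -0.15, 0.11 and 0.21. CDC5L, a splicing protein, read 0.64, -0.25 and -0.12.

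MCM genes had 3 of 9 means above 0 and a median of -0.05. They include subunits of the helicase that opens DNA at replication origins (MCM3 to MCM7). MCM8, MCM9, MCM10 and MCM3AP are counted with them by name. MCM8, which works in recombination repair, was the highest, at 0.18, 0.56 and 0.05 (mean 0.26 ± 0.26; 95% interval -0.13 to 0.65; unadjusted p = 0.148 by limma). All 5 of its probes had means above 0, from 0.26 to 0.40. Neighbouring MCM8 probes overlap on the transcript, so they are not independent readings. With replicate 2 turned its mean became -0.11, so its direction rests on the likely orientation of that array.

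MCM6 was above 0 on each array at its brighter probe, at 0.04, 0.10 and 0.09 (mean 0.08 ± 0.03). The other MCM6 probe, nearly as bright, read -0.17, 0.33 and -0.10 (mean 0.02). MCM3 read 0.48, -0.56 and 0.12 (mean 0.01 ± 0.53; 0.39 with replicate 2 turned). MCM5 read -0.76, 0.29 and 0.17 (mean -0.10 ± 0.57). MCM7 resembled MCM5 at -0.57, 0.28 and 0.02 (mean -0.09 ± 0.43). These are subunits of 1 ring, yet on replicate 1 they ran from -0.76 for MCM5 to 0.48 for MCM3. MCM4 had a mean of -0.05 ± 0.20 and MCM10, which helps to start the fork, -0.13 ± 0.19. MCM3AP, a partner of MCM3 known for mRNA export, read -0.52, 0.33 and 0.03 (mean -0.05, turned -0.27).

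SMC proteins were the one class in which every mean was above 0, in 5 of 5 genes (median 0.14). SMC2, a condensin subunit, read 0.21, 0.01 and 0.41 (mean 0.21 ± 0.20). SMC3, a cohesin subunit, read 0.10, 0.27 and 0.13 (mean 0.17 ± 0.09). SMC5, of the repair-linked SMC complex, read 0.05, 0.19 and 0.17 (mean 0.14 ± 0.07). At their brightest probes these 3 were of 1 sign on every array, but their unadjusted p-values were 0.206, 0.253 and 0.333 (limma). The other SMC3 probes read -0.14, -0.08 and -0.04 on replicate 1. A dimmer SMC2 probe read -0.13 and a dimmer SMC5 probe -0.03 on that array. Every probe of these 3 genes had a mean above 0. Neighbouring probes of SMC3 overlap, as do those of SMC5, so they are not independent readings. SMC4, the other condensin subunit, read 0.33, -0.09 and -0.01 (mean 0.08 ± 0.22).

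SMC1A, which pairs with SMC3 in cohesin, did not follow its partner. It read -0.86, 0.78 and 0.16, the largest spread of the 112 genes in this orientation (mean 0.03 ± 0.83). With replicate 2 turned the median of the class was 0.01, the mean of SMC1A was -0.49 and that of SMC3 -0.01.

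Centromere and kinetochore genes had 4 of 8 means on each side of 0 (median -0.03). CENPB, which binds centromeric repeats, was lower in frozen embryos on each array at -0.25, -0.18 and -0.22 (mean -0.22 ± 0.04; unadjusted p = 0.145 by limma). CENPP, a subunit of the constitutive centromere network, read -0.06, -0.20 and -0.16 at its brighter probe (mean -0.14 ± 0.07). The other CENPP probe read 0.26, -0.37 and 0.09 (mean -0.01). The sizes of these shifts were small. Turning replicate 2 left means of -0.10 for CENPB and -0.01 for the brighter CENPP probe. NDC80, which grips the microtubule, read -0.21, -0.08 and 0.04 (mean -0.09 ± 0.12). CENPK had the highest mean, 0.15, from values of 0.49, -0.14 and 0.11.

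Kinesins, the microtubule motors, had 13 of 20 means below 0 (median -0.08). Between replicates 1 and 2, 17 of 20 (85.0%) changed sign, against 66.0% of named genes. The spindle motor KIF11 read 0.25, -0.19 and -0.13 (mean -0.02 ± 0.24). KIF20A, needed for cytokinesis and the brightest of these probes, read -0.54, 0.28 and 0.02 (mean -0.08 ± 0.42). KIF23, its partner at the midbody, read -0.43, 0.07 and 0.12 (mean -0.08 ± 0.30). KIF20A and KIF23 were thus below 0 on replicate 1 alone, while KIF14, another cytokinesis motor, read -0.41, 0.23 and -0.19, and the brighter KIF20B probe was below 0 on each array at -0.06, -0.12 and -0.06. KIF4A, a chromosome-bound motor, read -0.63, 0.34 and -0.04 (mean -0.11, turned -0.34). KIFC1, a motor that bundles spindle poles, was low on replicate 3, at -0.08, 0.05 and -0.66. Its mean of -0.23 was the lowest of the class.

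Kinesins with another known role stood on both sides of 0. KIF21A, a motor of neurons and of microtubule growth control, had the highest mean, from 0.41, -0.04 and 0.72 (mean 0.36 ± 0.38; unadjusted p = 0.101 by limma). Its 4 probes had means from 0.19 to 0.40. KIF1B, a motor of vesicles and mitochondria, was below 0 on each array at -0.22, -0.19 and -0.12 (mean -0.18 ± 0.05; -0.05 with replicate 2 turned). KIF27 had the highest value of any of the 112 genes on replicate 2, at 0.83, beside -0.21 and -0.31 (mean 0.10, turned -0.45). It was read by 1 dim probe, with a mean log2 signal of 5.5. KIF24 read -0.66, 0.38 and 0.02 (mean -0.09, turned -0.34).

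Spindle checkpoint genes had 4 of 5 means below 0 (median -0.07). BUB1, a checkpoint kinase, read -0.48, -0.02 and 0.08 (mean -0.14 ± 0.30). BUB1B, which restrains the anaphase-promoting complex, read -0.52, 0.28 and 0.02 (mean -0.08 ± 0.41). BUB3, their binding partner, had a mean of -0.07 ± 0.09. MAD2L1, the checkpoint effector, read 0.13, 0.01 and 0.01 at its brightest probe (mean 0.05 ± 0.07). Its other probes had means of -0.03, -0.07 and 0.02, and read -0.02, -0.08 and 0.26 on replicate 1. The kinases BUB1 and BUB1B were low on replicate 1, and the brightest MAD2L1 probe was not.

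Polo-like and Aurora kinases, with AURKAIP1 counted among them by name, had 6 of 7 means below 0 (median -0.05). PLK1, the kinase that drives mitotic entry and spindle assembly, held the lowest value of the 112 genes on any array. It read -1.18, 0.32 and -0.02 (mean -0.29 ± 0.79; 95% interval -1.05 to 0.47), so the low mean came from replicate 1. With replicate 2 turned it was -0.51. AURKA, the centrosomal Aurora kinase, had the same form at -0.81, 0.04 and -0.01 (mean -0.26 ± 0.48). The array describes that probe as Aurora kinase B-like, so its assignment is uncertain. AURKB, the kinase of the chromosomal passenger complex, read -0.14, -0.06 and 0.04 (mean -0.05 ± 0.09). AURKAIP1, a mitochondrial ribosome protein, was below 0 on each array at -0.36, -0.10 and -0.02. PLK2 and PLK4, the kinase of centriole copying, read 0.31, -0.31 and -0.16, and 0.44, -0.32 and -0.21. Their means were -0.05 and -0.03, or 0.16 and 0.18 with replicate 2 turned. All 3 PLK4 probes had signs opposite to PLK1 on replicates 1 and 2. The second PLK2 probe read -0.27, 0.11 and -0.62, with the signs of PLK1, so the PLK2 probes, both dim, disagree.

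The anaphase-promoting complex, the ubiquitin ligase that ends mitosis, had 3 of 9 means above 0 (median -0.04). All 9 of its genes had opposite signs on replicates 1 and 2, against 66.0% of named genes. Those 9 thus had the same sign on the 2 arrays once replicate 2 was turned. ANAPC1, its scaffold, read 0.10, -0.32 and 0.11 (mean -0.03 ± 0.25; 0.18 with replicate 2 turned). ANAPC13, a small subunit, read 0.02, -0.28 and -0.40 (mean -0.22 ± 0.22; -0.04 with replicate 2 turned). ANAPC4 read -0.34, 0.04 and -0.06 (mean -0.12 ± 0.19). ANAPC5 was highest on replicate 1 at 0.69, beside -0.37 and -0.004 (mean 0.11, turned 0.35).

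**Figure D3:**
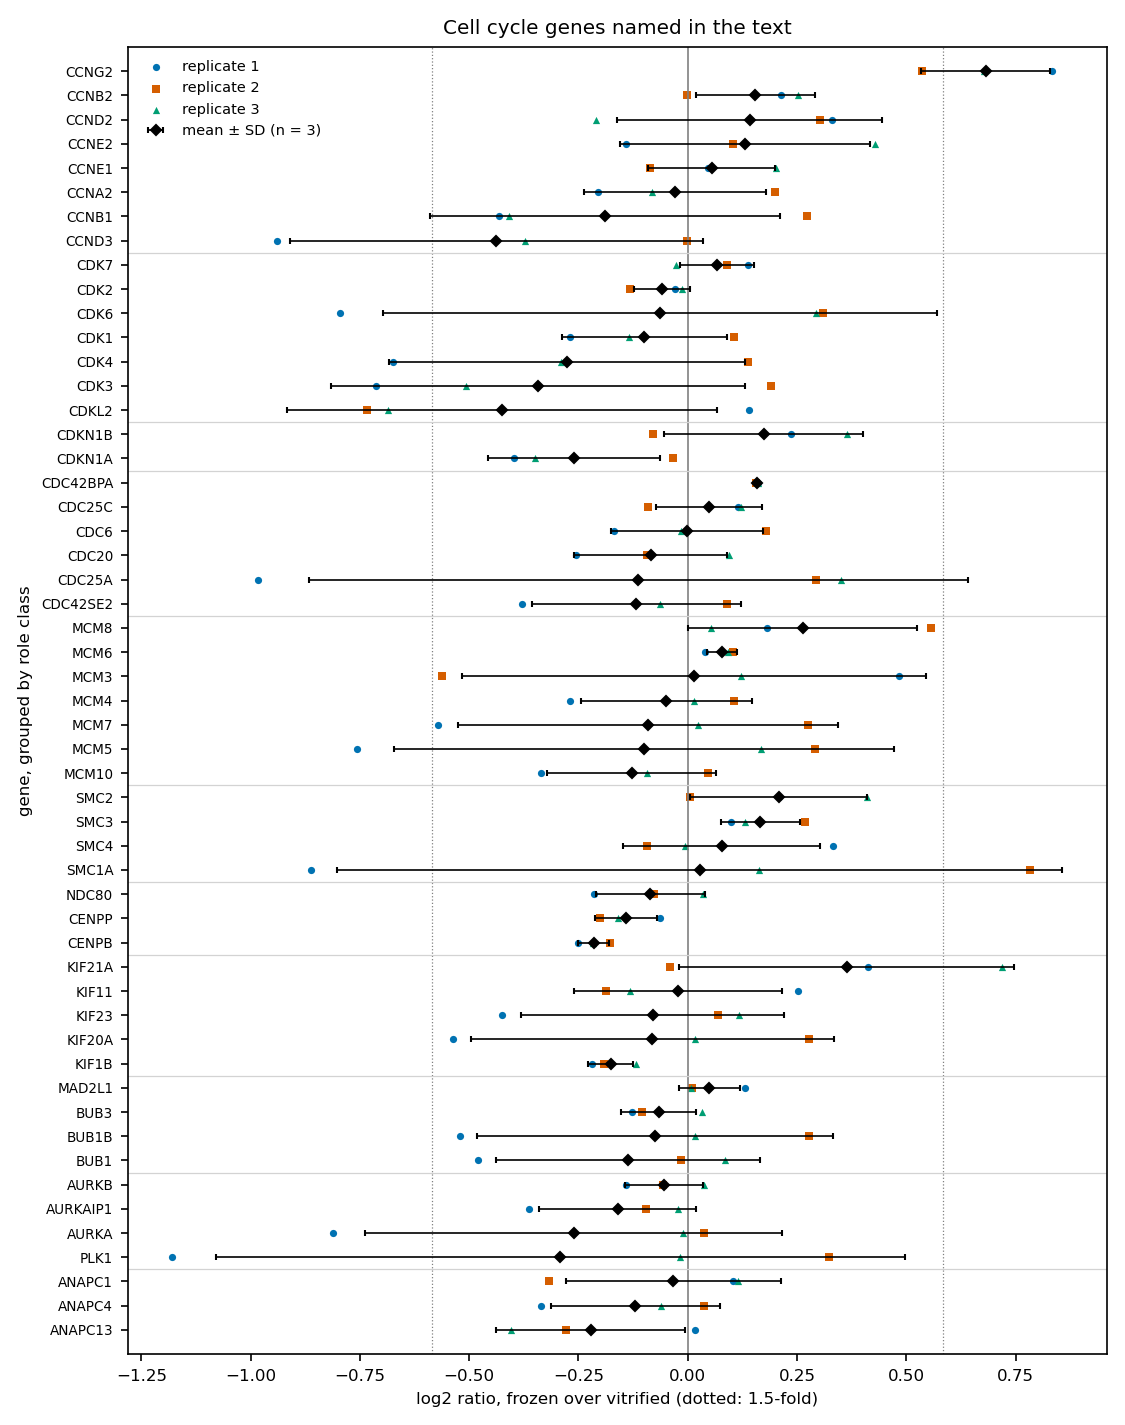
Log2 ratio of frozen over vitrified (horizontal axis) for 53 genes of the machinery (vertical axis, grouped by role class); coloured symbols are the 3 arrays, black diamonds the mean with its SD, and dotted lines 1.5-fold. CCNG2 is the only gene shown whose mean lies beyond a dotted line.

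Grouped by cycle phase, genes known for G1 and S phase (15 genes) had a median of -0.06 with 10 means below 0. Genes known for G2 and mitosis (25) had a median of -0.08 with 19 below 0. Their medians by array were -0.27, 0.11 and 0.02 for the first group and -0.25, 0.05 and -0.01 for the second. With replicate 2 turned both medians were lower, at -0.12 and -0.13. The 78 genes of the division cycle had a median of -0.05, and the 34 with another known role -0.02. In the orientation used here both phase groups were therefore lower on replicate 1 than on the other arrays. The replicate 1 median was also below 0 for the 78 division genes (-0.13) and the 34 others (-0.20). Over all named genes it was -0.08. In the 25 genes of G2 and mitosis, 18 values were below 0 on replicate 1, 10 on replicate 2 and 14 on replicate 3. Over the 6507 named genes those counts were 3805, 2793 and 3039.

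Replicates 1 and 2 had opposite signs in 77 of the 112 genes (68.8%), against 66.0% of named genes. Of those 77, 50 were negative on replicate 1, against 2653 of 4294 named genes. Across the 112 genes the 2 arrays correlated at Pearson's r = -0.50 and Spearman's rho = -0.54, against -0.38 and -0.41 across all named genes. The sign of these values turns with that of replicate 2. These are descriptions across genes, which are not independent replicates. Replicate 3 correlated at 0.04 with replicate 1 and 0.18 with replicate 2 (Pearson), against 0.005 and 0.47 over all named genes. The share of G and C in the probe ran from 35% to 88.3% (median 45%), the highest being AURKAIP1. Its Spearman correlation with the ratio over the 112 genes was -0.28, 0.09 and -0.11 on replicates 1, 2 and 3, against -0.19, 0.05 and -0.01 over all named genes. The part of base composition in these ratios was not tested. With the sign of replicate 2 turned, 36 genes were of 1 sign on every array (32.1%), against 26.4% of named genes. Of those 36, 12 were higher and 24 lower, against 718 and 998 of the 6507 named genes. The mean of 24 of the 112 genes changed sign. The class medians became -0.09 for cyclins, 0.02 for CDC proteins, -0.12 for MCM genes, -0.02 for the centromere and kinetochore, -0.01 for kinesins, 0.003 for the checkpoint, -0.02 for Polo-like and Aurora kinases and -0.04 for the anaphase-promoting complex. In that setting 5 genes (4.46%) had an unadjusted p under 0.05, against 5.04% of named genes, and 0% of probes had an adjusted p under 0.05 (limma).

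**Figure D4:**
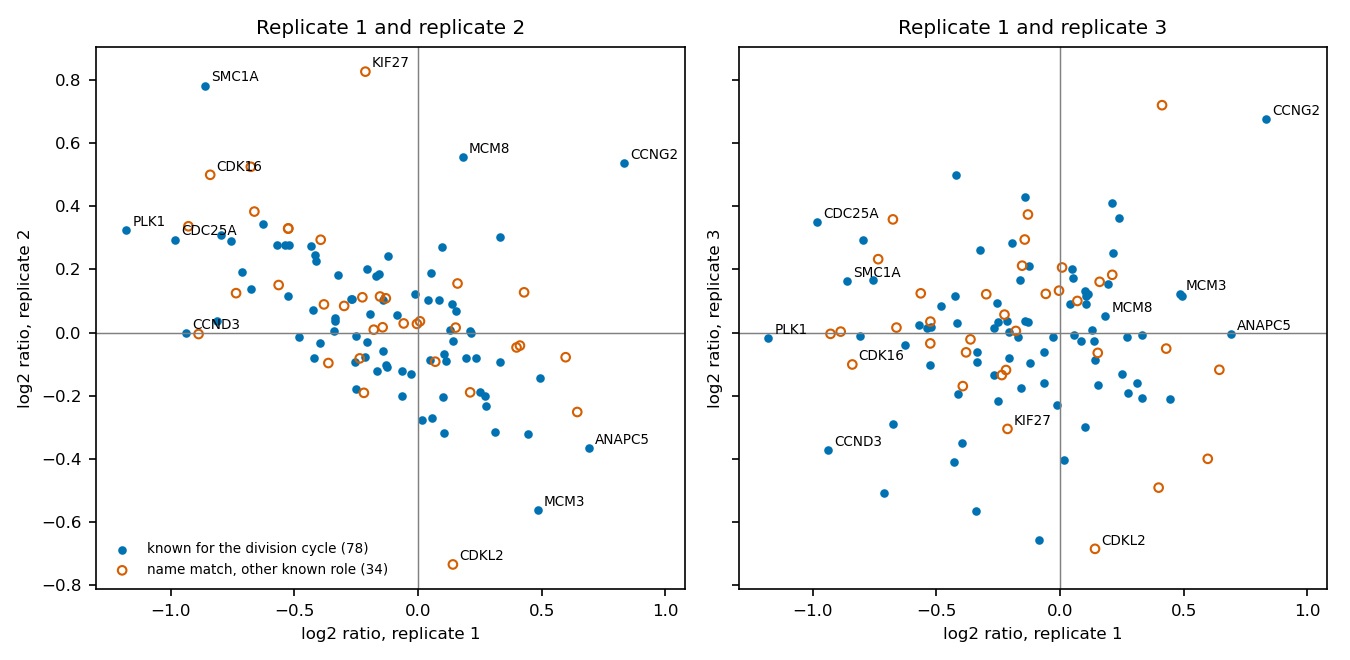
Log2 ratio of each of the 112 genes on replicate 1 (horizontal axes) against replicate 2 (left, vertical axis) and replicate 3 (right, vertical axis); filled symbols are the 78 genes known for the division cycle and open symbols the 34 with another known role. On the left the cloud falls from upper left to lower right (Pearson's r = -0.50), with CCNG2 and MCM8 at the upper right; on the right no slope is seen (0.04).

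Leaving out replicate 1 changed the count of calls over the whole array. Without it, 796 probes passed an adjusted p under 0.05, which is 3.49% of all probes (3.09% of named genes). Of the 112 genes 1 was among them, the CDK-like CDKL2, with a mean of -0.71 (adjusted p = 0.0309 by limma over 2 arrays). Its 3 probes read from -0.08 to 0.14 on replicate 1, from -0.73 to -0.42 on replicate 2 and from -1.17 to -0.68 on replicate 3. They are dim, with mean log2 signals from 5.27 to 5.48. With replicate 2 turned, CDKL2 has opposite signs on replicates 2 and 3, so this call rests on the likely orientation. Without replicate 1 CCNG2 had an adjusted p of 0.0555 (limma). An unadjusted p under 0.05 was reached by 6 genes (5.36%), against 16.0% of named genes: ANAPC13, CCNG2, CDC25A, CDK5RAP1, CDKL2 and SMC1A.

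Several genes were read by more than 1 probe. Of the 112 genes, 52 had 1 probe and 60 had 2 or more. Among the 60, the median range over probes within an array was 0.16, 0.15 and 0.18 on replicates 1, 2 and 3, beside a median SD over arrays of 0.20. For the means over 3 arrays the median range over probes was 0.08. All probe means had 1 sign in 41 of the 60. In part of the 60 genes, among them ANAPC1, CDK16 and MCM3, the probes overlap almost fully. Their agreement is thus not that of independent readings. The widest disagreement was in CDC40, a splicing factor named after its values were seen, whose 2 probes had means of -0.05 and 0.32. CCNB1 had 2 probes with means of -0.19 and -0.06, and CDK1 had 3 with means from -0.10 to -0.03.

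Of 122 other cell cycle genes whose symbols the rule does not match, 80 were measured. Their median was -0.02, with 38 means above 0 and 42 below, and none passed the adjusted threshold. Unadjusted, 3 had p under 0.05 (limma), or 3.75%, a share near the 4.20% of all named genes. ANLN, anillin, which anchors the cytokinetic ring, read 0.55, 0.63 and 0.32 (mean 0.50 ± 0.16; adjusted p = 0.895). UBE2S, the ubiquitin-conjugating enzyme of the anaphase-promoting complex, read -0.58, -0.89 and -0.19 (mean -0.55 ± 0.35; adjusted p = 0.983). CEP55, which acts at abscission, read -0.40, -0.32 and -1.11 (mean -0.61 ± 0.44; adjusted p = 0.994). STAG2, a cohesin subunit that binds the ring of SMC1A and SMC3, was above 0 on each array (mean 0.26 ± 0.08). With replicate 2 turned the means were 0.08 for ANLN, 0.04 for UBE2S, 0.08 for STAG2 and -0.40 for CEP55.

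Markers of the embryo's cell types are given as values beside the division genes. All 10 measured hypoblast markers had means below 0 (median -0.68, range -1.03 to -0.31), with array medians of -0.20, -0.75 and -1.10. Of the 4 epiblast markers 3 were below 0 (median -0.35), and of the 6 trophoblast markers 4 were above 0 (median 0.16). Uterine markers, of which 2 of 6 were measured, both lay below 0 (median -0.41), and the 1 of 7 blood markers measured lay at 0.21. With replicate 2 turned the medians were -0.17 for hypoblast, -0.24 for epiblast, -0.006 for trophoblast and -0.20 for uterine markers, and 0.31 for the blood marker. None of these passed an adjusted p under 0.05, and 5 hypoblast and 2 epiblast markers had an unadjusted p under 0.05 (limma). Their part in the values of the division genes was not tested.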

How the data were processed

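RNA (100 ng per sample, per the labels' protocols) was hybridised to two-colour Agilent arrays and, per the submitters' processing notes, scanned into Agilent Feature Extraction 10.10.1.1. The authors deposited a table of log2 ratios for 3 arrays, with scale, centring and direction unstated. They also deposited scanner files of replicates 1 and 3, which hold spot intensities per channel and log10 ratios, per the file headers. For those replicates the table equalled processed red over green, frozen over vitrified, to within 2.79e-06 and 2.41e-06. Column medians were -0.02, 0.02 and 0.02. Replicate 2 was read as frozen over vitrified because 10 spike-in probes, which follow the dye, had r = -1.00 for replicates 1 and 2 but 0.99 for replicates 1 and 3. All probes correlated at -0.36 between replicates 1 and 2. There are 0 other sample columns.

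Names were found for 13932 of 22839 non-control probes: 8386 by RefSeq transcript, 5294 by gene number, 160 by description and 92 by the array's gene name. Each gene took its brightest probe; near-identical copies may share probes. Ratios were tested against 0 by lmFit and eBayes of limma 3.58.1 under R 4.3.3, adjusted by Benjamini-Hochberg over all probes, after scripts were tested on simulated data. Python 3.11.15, pandas 2.3.3 and matplotlib 3.10.9 made tables and figures. The labels call the arrays biological replicates; their number limits the precision, and slide coincides with replicate.

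Named genes were 48 fixed cycle genes, of which 39 had a named probe (CCND1, CDKN1C, CDC7, CDC25B, CDC45, MCM2, CENPA, CENPE and TOP2A are not analysed here), the 2 smallest p-values of each role class, and genes of 1 sign and 1.5-fold; others printed were chosen after their values were seen. Genes and lists were chosen with earlier results of these data known, and roles assigned after values were seen. Alternatives were the sign of replicate 2, centring, a dye covariate, an intensity trend, the median over probes, a filter at a log2 signal of 7, the scanner log ratio, normexp (offset 50) with loess, and each array left out.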

Additional observations from a re-analysis of the deposited data

Results flagged for a closer look

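2 genes that match the symbol rule, CDC27 and CDK17, had probes well above background in all 4 channels of the scanner files but lie outside the value table, so no value of replicate 2 was used. CDC27, a subunit of the anaphase-promoting complex, read 0.34 on replicate 1 and -0.22 on replicate 3 (log2, frozen over vitrified). CDK17, a CDK of the PCTAIRE group, read -0.77 and -1.36, so frozen embryos were lower on both arrays. Neither was tested. No group holds the 4 samples needed to look for an array that stands apart.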

How the results depend on the processing

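The median of the 112 genes stayed between -0.09 and 0.02 (log2) under every alternative, and moved by less than the spread between arrays in each. The count of genes with an unadjusted p under 0.05, 1 in the report, became 5 with the sign of replicate 2 turned, 0 with dim probes left out, 4 with the scanner log ratio of replicates 1 and 3 and 4 with normexp and loess. Leaving out 1 array in turn gave 1 to 6: 6 without replicate 1, 4 without replicate 2 and 1 without replicate 3. The count of genes of 1 sign, 18 in the report, became 36 with replicate 2 turned (32.1%, against 26.4% of named genes). In the 2 scanner settings it was 54 and 59 (48.2% and 52.7%, against 48.7% and 50.2%). Leaving out replicates 1, 2 and 3 in turn gave 59, 54 and 35. Those shares were 52.7%, 48.2% and 31.2%, against 62.0%, 48.7% and 34.0% of named genes. The scanner and left-out settings have 2 arrays, on which 1 sign is easier to reach. Adjusted calls over all probes ran from 0 to 796 when an array was left out, with 796 without replicate 1. Of 57 named genes, turning replicate 2 changed the sign of 10, leaving out replicate 1 that of 16, and normexp with loess that of 8. The cause of these changes was not tested. Each array is already a ratio of its own pair of samples, so the test against 0 is paired by array. No further pairing was used. Dim signal limits the 21 genes below a log2 signal of 7, CCNG2 among them.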
